A study of Arabidopsis thaliana with 4 samples.

Results

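Plants attach sugars, glutathione or acyl groups to hormones, phenolics and foreign compounds, and 4 large enzyme families carry much of this work. UDP-glycosyltransferases (UGTs) move a sugar from a UDP-sugar onto a small molecule, which usually makes it soluble, inactive or ready for storage in the vacuole. Beta-glucosidases (BGLUs) of glycoside hydrolase family 1 remove such sugars again and so release the free compound. Glutathione S-transferases (GSTs) couple glutathione to reactive compounds or carry phenolics, and serine carboxypeptidase-like (SCPL) proteins are either peptidases or, in one branch, acyltransferases that use glucose esters made by UGTs as donors.

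The genes of these 4 families were examined in above-ground tissue of lwd1 lwd2 double mutant and wild-type Arabidopsis thaliana. Members were probe sets assigned to exactly 1 gene whose symbol, without regard to case or a leading AT, began with UGT and a digit, with GSTU, GSTF, GSTL, GSTZ or GSTT, with BGLU, or with SCPL. The rule used names only and no measured value. It found 110 probe sets, 1 for each of 110 genes, among 22746 probe sets on the array other than controls and 13286 genes with a probe set of their own. These were 47 UGT, 14 GST, 20 BGLU and 29 SCPL genes. No GSTZ or GSTT gene was among the named probe sets. Family members with another symbol are not counted, such as the root beta-glucosidase PYK10. Probe sets with several genes or none in the probe table are not counted either, so the counts do not describe whole families.

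The tested plants lacked LWD1 and LWD2, a pair of related WD-repeat proteins of the circadian clock, and wild-type plants were the controls, with 2 Affymetrix arrays of each genotype described as biological replicates. Both genotypes were raised under a day of 12 h light and 12 h darkness, and shoots were collected at an age of 31 days between 5 and 9 h into the light period, so a shifted daily rhythm and a changed level cannot be told apart at this single harvest window. The mutant alleles, the ecotype and the number of plants pooled for an array are not given in the sources used here, and neither LWD1 nor LWD2 was checked on the array. The study compared the genotypes to find transcripts that depend on the pair of clock proteins.

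Values are signal intensities, scaled by the authors to the same mean on each array. The median signal was 181 and 176 on the lwd1 lwd2 arrays, against 162 and 162 on the wild-type arrays. Arrays of 1 genotype correlated at 0.972 in lwd1 lwd2 and in wild type, and arrays of different genotype at 0.932 to 0.947. Differences are given on the log2(intensity + 16) scale as lwd1 lwd2 minus wild type, where 1 is a doubling. They are given with limma's moderated standard error (SE). This SE combines a gene's own spread between replicates with that of probe sets of similar signal. It can thus be much wider than the gap between close replicates. The added offset understates the change of dim genes. A gene is said to have risen or fallen when its adjusted p from limma was below 0.05 over 13647 tested probe sets. With 2 arrays against 2, an exact permutation test of a single gene could not go below p = 0.333, so no such test was made. The number of arrays limits the precision of every value.

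Of 36 listed leaf markers, 4 were named on the array (RCA, PRK, LHCB4.1 and LHCB4.2). Their signals ran from 13167 to 26465 in lwd1 lwd2 and from 17520 to 29535 in wild type. Their summed signal was 70372 and 86496 on the lwd1 lwd2 arrays, against 95138 and 98382 on the wild-type arrays. All 4 had a negative difference (median −0.32) and none passed the test. Among root markers, the root hair expansins EXPA7 and EXPA18 had signals of at most 82.9, while PYK10 stood at 934 and 1406 on the lwd1 lwd2 arrays, against 1104 and 1810.2 on the wild-type arrays. With members left out, 3 of 29 root, 1 of 40 anther and pollen, 1 of 21 floral and 1 of 23 seed markers were named. Most markers of these tissues could thus not be looked at. The pollen regulator AMS and the oleosin OLEO3 were dim in both genotypes, at 94.3 or below. The member scpl35, also on the pollen list, was not dim. It had signals of 846 and 729 on the lwd1 lwd2 arrays, against 586 and 361 on the wild-type arrays (0.75 ± 0.24, limma adjusted p = 0.106). SPT, a regulator of carpel and leaf growth, had signals of 139 and 192 on the lwd1 lwd2 arrays, against 83.2 and 76.4 on the wild-type arrays (adjusted p = 0.0926, limma). Its wild-type signals lay below 91.5, the mean signal needed for testing, so SPT was tested only through its higher mutant signals. The part of tissue make-up in the differences below was not tested, and in whole tissue fewer cells of a type and less RNA per cell cannot be told apart.

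Of the 110 genes, 48 had a mean signal above the filter at 91.5 and were tested. The other 62 (56.4%) were among the dimmest 40% of the array and are described at the end. The tested genes were 20 UGT, 7 GST, 7 BGLU and 14 SCPL genes. A gene dim in one genotype could pass the filter through the other, so the tested genes are not a sample of all members.

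With the signals as deposited, the double mutant had more transcript of 3 of these genes, and none fell. They came from 3 different families: the beta-glucosidase BGLU44, the carboxypeptidase SCPL49 and the glycosyltransferase UGT71B1. That is 6.25% of the tested members, close to the 5.57% of all tested probe sets that passed in either direction. Over all probe sets, 2.73% rose and 2.84% fell. The balance of calls depended on the scaling. After centring each array on its median, 1.88% of all tested probe sets rose and 4.19% fell, 2 members rose (BGLU44 and SCPL49) and 4 fell (GSTL3, GSTU16, UGT72E1 and scpl46), which is 12.5% of tested members against 6.07% of all probe sets. With a robust variance prior 4 members rose and 3 fell (14.6%, against 6.18% of all probe sets), and with the dimmest 60% left out 3 rose and 2 fell (12.8%, against 7.54%). The share of members called was thus near that of the array in some analyses and about double it in others. The plot of signals by array shows all 48 tested genes.

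**Figure D1:**
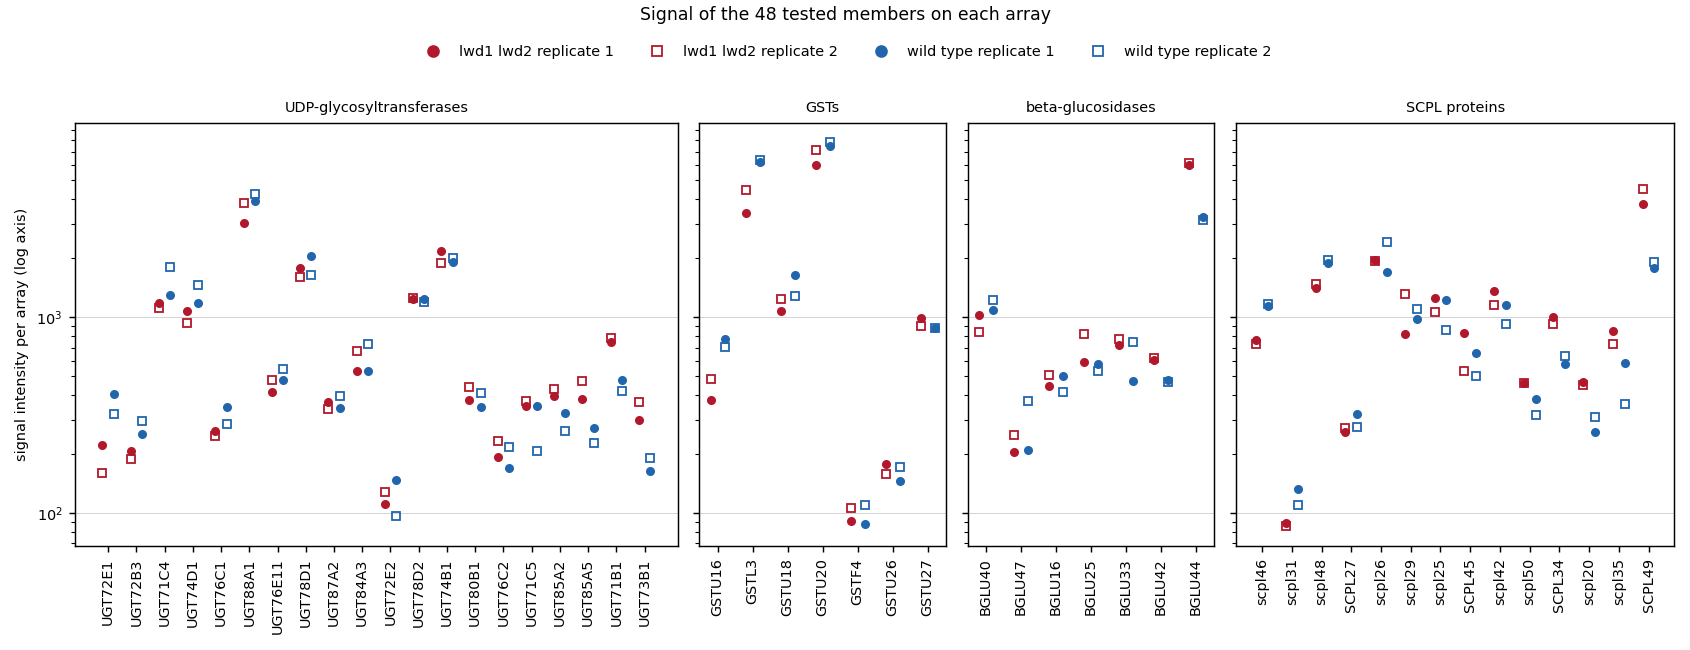
Signal intensity (log axis) of each tested UGT, GST, BGLU and SCPL gene on the 2 lwd1 lwd2 arrays (red) and the 2 wild-type arrays (blue), with replicate 1 filled and replicate 2 open. Genes run from the lowest to the highest log2 difference within a family, and BGLU44 and SCPL49 stand out at the right of their panels with mutant arrays well above wild type. Signals of different genes are not comparable as transcript amounts.

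BGLU44 (AT3G18080) encodes a glycosidase that acts on beta-mannosides and beta-glucosides of short sugar chains. Its signal was 6011 and 6101 on the lwd1 lwd2 arrays, against 3268 and 3146 on the wild-type arrays. The replicate arrays lay close together in both genotypes, and the genotypes did not overlap. The mean was 6056 ± 63.6 in lwd1 lwd2 and 3207 ± 86.3 in wild type (SD, n = 2), a 1.88-fold rise with a log2 difference of 0.91 ± 0.16 (SE, limma adjusted p = 0.00885). BGLU44 passed in every alternative processing that was run, with differences from 0.79 to 0.95.

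SCPL49 (AT3G10410) is annotated as a carboxypeptidase Y, a vacuolar enzyme type that trims amino acids from the end of peptides. It had signals of 3783 and 4492 on the lwd1 lwd2 arrays, against 1780.5 and 1919.7 on the wild-type arrays. Both mutant arrays stood far above both wild-type arrays, with a wider gap between the mutant replicates than between the wild-type ones. The log2 difference was 1.15 ± 0.18 (SE, limma adjusted p = 0.00381), a 2.22-fold rise. SCPL49 was the only tested member whose difference reached 1 on the log2 scale, and it too passed in every alternative that was run.

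UGT71B1 (AT3G21750) belongs to a group of glycosyltransferases that includes enzymes able to glucosylate abscisic acid, the hormone of drought and seed dormancy. Signals were 749 and 781 on the lwd1 lwd2 arrays, against 479 and 421 on the wild-type arrays. The genotypes did not overlap, and the mutant replicates were the closer pair. The rise was 1.68-fold, with a log2 difference of 0.75 ± 0.19 (SE, limma adjusted p = 0.0472), just inside the threshold. The call was lost without lwd1 lwd2 replicate 1 (adjusted p = 0.0973), without lwd1 lwd2 replicate 2 (0.133) and without wild type replicate 2 (0.157). It was also lost in 5 of the other alternative analyses, with a range of 0.036 to 0.157 over all of them.

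**Figure D2:**
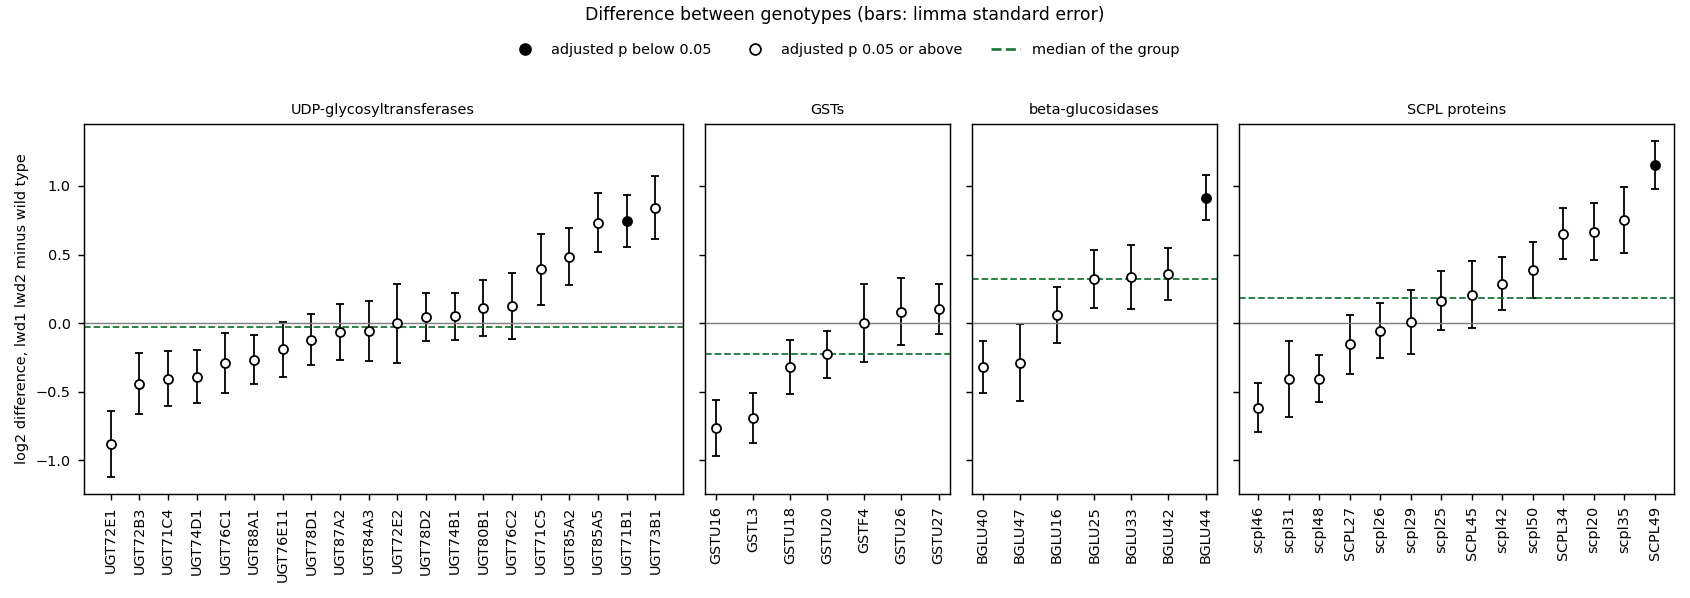
Log2 difference of each tested gene, lwd1 lwd2 minus wild type, with limma's standard error as bars. Filled points passed an adjusted p of 0.05, and the dashed line is the family's median, which lies at −0.23 for GSTs and at 0.32 for beta-glucosidases.

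The medians of the 4 families are given as a description, beside the plot of differences by family. Tested GST genes had a median of −0.23, with 5 of 7 negative. UGT genes centred near 0, with a median of −0.0295 and 11 of 20 negative. The SCPL median was 0.18, with 9 of 14 positive, and the BGLU median was 0.32, with 5 of 7 positive. Over all tested probe sets the median was 0.0465, and 55.1% were positive. No test was made over the genes of a family, because genes are not replicates of a genotype. The medians moved with single arrays. The BGLU median was 0.0928 without lwd1 lwd2 replicate 2. The GST median was −0.11 without lwd1 lwd2 replicate 1, −0.14 without wild type replicate 1 and −0.35 without lwd1 lwd2 replicate 2. It was also −0.35 without wild type replicate 2, but over 6 genes, because GSTF4 did not pass the filter in that fit. That value thus mixes the change of arrays with a change of genes. The SCPL median was 0.11 without lwd1 lwd2 replicate 1 or wild type replicate 2, and 0.34 or 0.41 without lwd1 lwd2 replicate 2 or wild type replicate 1. In the plot of medians by processing, the GST median stayed below that of all probe sets and the BGLU median above it in each alternative, whereas the order of the BGLU and SCPL medians turned without lwd1 lwd2 replicate 2 (0.0928 and 0.34) and without wild type replicate 1 (0.19 and 0.41). With 1 array left out, the difference of 32 of the 48 members moved by over 1.5 times in at least 1 case and 15 changed sign. The 3 that rose could not change sign in this way, because their genotypes did not overlap.

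**Figure D3:**
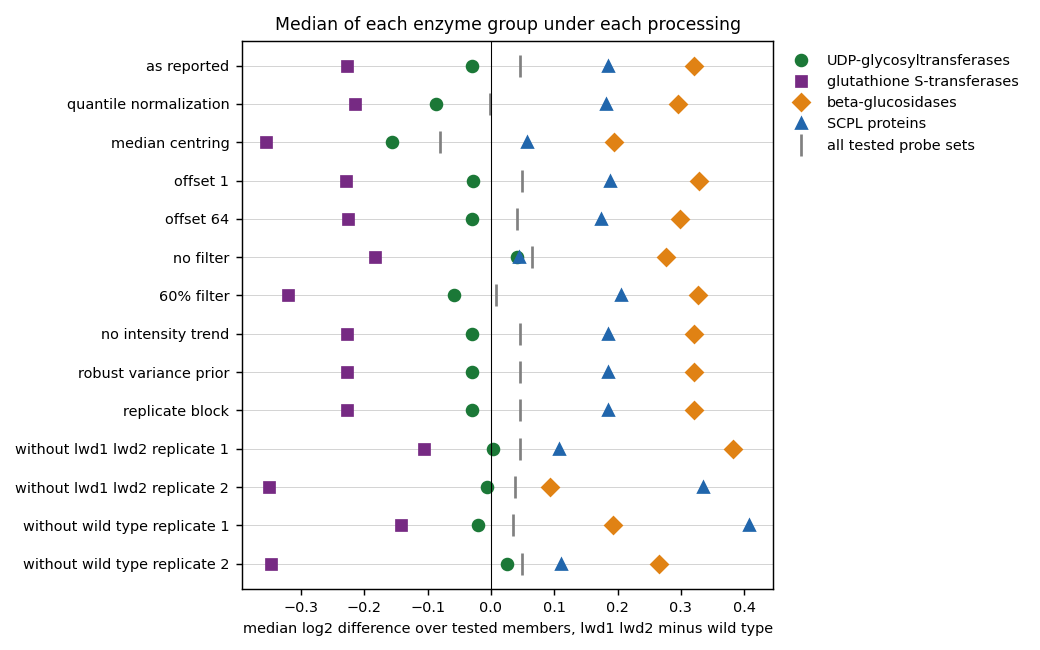
Median log2 difference over the tested genes of each family and over all tested probe sets, under the processing as reported and each alternative (one line each). Not every line holds the same genes, least of all those with another filter or none. GST medians run from −0.36 to −0.11 and BGLU medians from 0.0928 to 0.38, so GST medians lie below BGLU medians in each line, while SCPL medians pass BGLU medians in 2 of the lines.

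Genotypes did not overlap for 31 of 48 tested members (64.6%), against 51.5% of all tested probe sets. The mutant was higher for 15 of them and lower for 16, that is 31.2% and 33.3% of tested members, against 28.9% and 22.6% of all tested probe sets. The shares without overlap were 12 of 20 UGT, 5 of 7 GST, 4 of 7 BGLU and 10 of 14 SCPL genes. Differences of at least 0.5 in size were found for 12 members (25%), against 19.8% of all tested probe sets. The median size of a difference was 0.32 among members and 0.24 among all tested probe sets. Replicate arrays of a member differed by a median of 0.19 in lwd1 lwd2 and 0.23 in wild type, near the 0.21 and 0.22 of all tested probe sets.

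A further 8 members (16.7%) had an adjusted p from 0.05 to below 0.1, against 3.57% of all tested probe sets. This second limit was chosen after the values were seen and is no call. Of the 8, 4 were higher (UGT73B1, UGT85A5, SCPL34 and scpl20) and 4 lower (UGT72E1, GSTU16, GSTL3 and scpl46). None had overlapping genotypes, and they are described with their families below.

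UGT71C5, the enzyme chiefly responsible for the glucose ester of abscisic acid, had signals of 352 and 372 on the lwd1 lwd2 arrays, against 354 and 208 on the wild-type arrays. Its wild-type replicates were far apart and the genotypes overlapped. The difference of 0.39 ± 0.26 (SE) was 0.75 without wild type replicate 1 and 0.031 without wild type replicate 2. UGT73B1, which glucosylates flavonoids and abscisic acid in the test tube, had signals of 297 and 369 on the lwd1 lwd2 arrays, against 164 and 192 on the wild-type arrays. All mutant values lay above all wild-type values, but the difference of 0.84 ± 0.23 missed the threshold (limma adjusted p = 0.0592), with alternatives from 0.0474 to 0.244. Only the robust variance prior brought it past the threshold (0.0474).

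UGT76C1 and UGT76C2 add glucose to the ring nitrogen of cytokinins, the hormones of cell division, and are direct neighbours in the genome. UGT76C1 had signals of 261 and 249 on the lwd1 lwd2 arrays, against 348 and 285 on the wild-type arrays, slightly lower in the mutant without overlap (difference −0.29 ± 0.22, SE). UGT76C2 had signals of 192 and 234 on the lwd1 lwd2 arrays, against 170.0 and 219 on the wild-type arrays, which overlapped (0.13 ± 0.24). UGT74D1 glucosylates auxin and its oxidation product. It stood at 1074 and 932 on the lwd1 lwd2 arrays, against 1182 and 1465 on the wild-type arrays, lower in both mutant arrays but not past the threshold (−0.39 ± 0.19, limma adjusted p = 0.292). UGT87A2, which is known to influence flowering time, differed by −0.063 ± 0.20 with overlapping arrays, and its 95% interval ran from −0.51 to 0.39.

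Of the UGTs of phenylpropanoid metabolism, UGT72E1 showed the lowest difference. It glucosylates coniferyl aldehyde and other building blocks of lignin. Its signals were 222 and 160.3 on the lwd1 lwd2 arrays, against 405 and 321 on the wild-type arrays, with every mutant value below every wild-type value. The difference was −0.88 ± 0.24 (SE, limma adjusted p = 0.0627). It passed without lwd1 lwd2 replicate 1 (−1.10, adjusted p = 0.025), with median-centred arrays and with a robust prior, within a range of 0.025 to 0.224 over the alternatives. Its relative UGT72E2, which acts on coniferyl and sinapyl alcohol, overlapped (−0.00036 ± 0.29). UGT72B3 of the same family had signals of 207 and 188 on the lwd1 lwd2 arrays, against 254 and 294 on the wild-type arrays (−0.44 ± 0.22, limma adjusted p = 0.303), lower in the mutant without overlap. UGT84A3, which makes glucose esters of hydroxycinnamic acids such as sinapate, differed by −0.059 ± 0.22, and its replicates spread widely in both genotypes.

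UGT78D1 and UGT78D2 act on flavonoids, and neither passed. UGT78D1, the flavonol 3-O-rhamnosyltransferase, had signals of 1778 and 1608 on the lwd1 lwd2 arrays, against 2051 and 1649 on the wild-type arrays, which overlapped (difference −0.12 ± 0.19). UGT78D2, the flavonoid 3-O-glucosyltransferase, stood at 1241 and 1258 on the lwd1 lwd2 arrays, against 1232 and 1195 on the wild-type arrays, a narrow range in both genotypes. Its difference of 0.042 ± 0.17 had a 95% interval of −0.34 to 0.43. UGT88A1 and UGT71C4, which can glucosylate flavonols in the test tube, were both lower in the mutant without overlap. UGT88A1 had signals of 3028 and 3839 on the lwd1 lwd2 arrays, against 3927 and 4281 on the wild-type arrays (−0.27 ± 0.18), with −0.0949 without lwd1 lwd2 replicate 1. UGT71C4 differed by −0.41 ± 0.20, and by −0.18 without wild type replicate 2.

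UGT74B1 completes the core of glucosinolates, the sulfur-containing defence compounds of the cabbage family, by S-glucosylation. It was at 2168 and 1897 on the lwd1 lwd2 arrays, against 1923 and 1997 on the wild-type arrays. These values overlapped, and the difference was 0.049 ± 0.17, with a 95% interval of −0.34 to 0.43. The sterol glucosyltransferase UGT80B1 had a difference of 0.11 ± 0.21 with overlapping arrays.

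In the GST family, 2 genes came close to the threshold and both were lower in the mutant. GSTL3 belongs to the lambda class, whose members reduce glutathione conjugates and bind flavonols instead of coupling glutathione. Its signal was 3399 and 4438 on the lwd1 lwd2 arrays, against 6198 and 6347 on the wild-type arrays. The mutant replicates were further apart than the wild-type ones, yet both lay below them, and the difference was −0.69 ± 0.18 (SE, limma adjusted p = 0.0538). GSTU16 is a tau-class enzyme, the plant-specific class that detoxifies herbicides and oxidised lipids. It had signals of 379.9 and 485 on the lwd1 lwd2 arrays, against 775 and 707 on the wild-type arrays and a difference of −0.76 ± 0.20 (limma adjusted p = 0.0551), without overlap. Without lwd1 lwd2 replicate 2, GSTL3 (−0.88, adjusted p = 0.0136) and GSTU16 (−0.93, adjusted p = 0.0321) both passed. They also passed with median-centred arrays, with the 60% filter and with a robust prior, and over all alternatives their adjusted p ran from 0.0136 to 0.218 and from 0.0293 to 0.225.

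The remaining GSTs had smaller differences. GSTU20, a tau-class GST that interacts with the jasmonate-conjugating enzyme FIN219, had signals of 6019 and 7136 on the lwd1 lwd2 arrays, against 7499 and 7860.5 on the wild-type arrays, lower without overlap (−0.23 ± 0.17, and −0.11 without lwd1 lwd2 replicate 1). GSTU18 stood at 1075 and 1245 on the lwd1 lwd2 arrays, against 1642 and 1279 on the wild-type arrays (−0.32 ± 0.20, and −0.14 without wild type replicate 1), also without overlap. GSTU27 was at 991 and 905 on the lwd1 lwd2 arrays, against 877 and 882 on the wild-type arrays, with a difference of 0.10 ± 0.18. The mutant arrays were above wild type by a small margin, and the sign turned with median-centred arrays (−0.0232). GSTU26 (0.084 ± 0.24) and the phi-class GSTF4 (−0.0011 ± 0.29) overlapped.

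Beta-glucosidases other than BGLU44 had differences from −0.32 to 0.36, and none passed. BGLU42, which is needed for induced systemic resistance in roots, had signals of 601 and 621 on the lwd1 lwd2 arrays, against 478 and 468 on the wild-type arrays. The replicates almost coincided and the genotypes were apart, with a difference of 0.36 ± 0.19 (limma adjusted p = 0.322). BGLU33 releases abscisic acid from its glucose ester in the vacuole, the reverse of what UGT71C5 does. It stood at 725 and 777 on the lwd1 lwd2 arrays, against 470.0 and 746 on the wild-type arrays, and wild type replicate 2 lay within the mutant range. The difference of 0.33 ± 0.23 was 0.0094 without wild type replicate 1 and 0.66 without wild type replicate 2. BGLU40 had signals of 1024 and 836 on the lwd1 lwd2 arrays, against 1094 and 1224 on the wild-type arrays (−0.32 ± 0.19), lower without overlap.

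BGLU47, related to the enzymes that act on monolignol glucosides, had signals of 204 and 251 on the lwd1 lwd2 arrays, against 209 and 373 on the wild-type arrays. The genotypes overlapped, and the sign of its difference (−0.29 ± 0.28) turned without wild type replicate 2 (0.11). BGLU25 was higher without overlap by 0.32 ± 0.21, and BGLU16 overlapped at 0.057 ± 0.20.

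SCPL genes split into higher and lower members. SCPL34 had signals of 997 and 928 on the lwd1 lwd2 arrays, against 577 and 636 on the wild-type arrays, and scpl20 had 467 and 453 on the lwd1 lwd2 arrays, against 258 and 311 on the wild-type arrays. Both were higher in the mutant with no overlap, by 0.65 ± 0.19 (limma adjusted p = 0.0706) and 0.67 ± 0.21 (limma adjusted p = 0.0926). The next was scpl35, at 846 and 729 on the lwd1 lwd2 arrays, against 586 and 361 on the wild-type arrays. Its wild-type replicates were far apart, and its difference of 0.75 ± 0.24 (limma adjusted p = 0.106) was 1.09 without wild type replicate 1 (adjusted p = 0.00862) and 0.41 without wild type replicate 2 (adjusted p = 0.448).

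On the lower side, scpl46 stood at 766 and 729 on the lwd1 lwd2 arrays, against 1144 and 1163 on the wild-type arrays. The replicates were tight and the genotypes well apart, with a difference of −0.62 ± 0.18 (SE, limma adjusted p = 0.0769), and centring the arrays on their medians brought it past the threshold (−0.74, adjusted p = 0.0351). The same tight pattern held for scpl48, at 1415 and 1481 on the lwd1 lwd2 arrays, against 1886 and 1959.8 on the wild-type arrays (−0.41 ± 0.17, limma adjusted p = 0.217). The gene scpl31, near the filter, had signals of 89.1 and 85.5 on the lwd1 lwd2 arrays, against 133 and 110.2 on the wild-type arrays (−0.41 ± 0.28). Among the genes that showed little difference, scpl26 was at 1969 and 1939 on the lwd1 lwd2 arrays, against 1697 and 2428 on the wild-type arrays. Its wild-type arrays enclosed the mutant ones (−0.055 ± 0.20), and without wild type replicate 2 the difference was 0.20. The remaining 6 SCPL genes (SCPL27, scpl29, scpl25, SCPL45, scpl42 and scpl50) had differences from −0.15 to 0.39.

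Many members lie close to other members in the genome. By the gene order of the TAIR10.1 assembly, 57 of the 110 genes fell into 24 clusters. Neighbouring members of a cluster were at most 5 protein-coding genes apart and could be of different families. The largest cluster joined UGT85A4 with GSTU20, GSTU21, GSTU22 and GSTU23, so not all neighbours are tandem copies. Probes for tandem copies can also read their neighbours, which was not tested. In 3 clusters more than 1 gene was tested. The UGT85A, UGT71C and BGLU15 clusters were picked for description with their values known.

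The UGT85A cluster held 4 genes, and all had positive differences in the analysis with no filter. The tested ones were UGT85A5, at 383 and 471 on the lwd1 lwd2 arrays, against 272 and 228 on the wild-type arrays, and UGT85A2, at 396 and 432 on the lwd1 lwd2 arrays, against 324 and 261 on the wild-type arrays. Neither pair of genotypes overlapped, with differences of 0.73 ± 0.22 (limma adjusted p = 0.0813) and 0.49 ± 0.21 (limma adjusted p = 0.229). The dim UGT85A3 showed the same order, at 93.6 and 101 on the lwd1 lwd2 arrays, against 16.2 and 36.7 on the wild-type arrays. With no filter its difference was 1.46 (limma adjusted p = 0.168). UGT85A7 had signals of 101 and 12.2 on the lwd1 lwd2 arrays, against 25.0 and 30.7 on the wild-type arrays, so 1 mutant array lay above wild type and the other below.

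**Figure D4:**
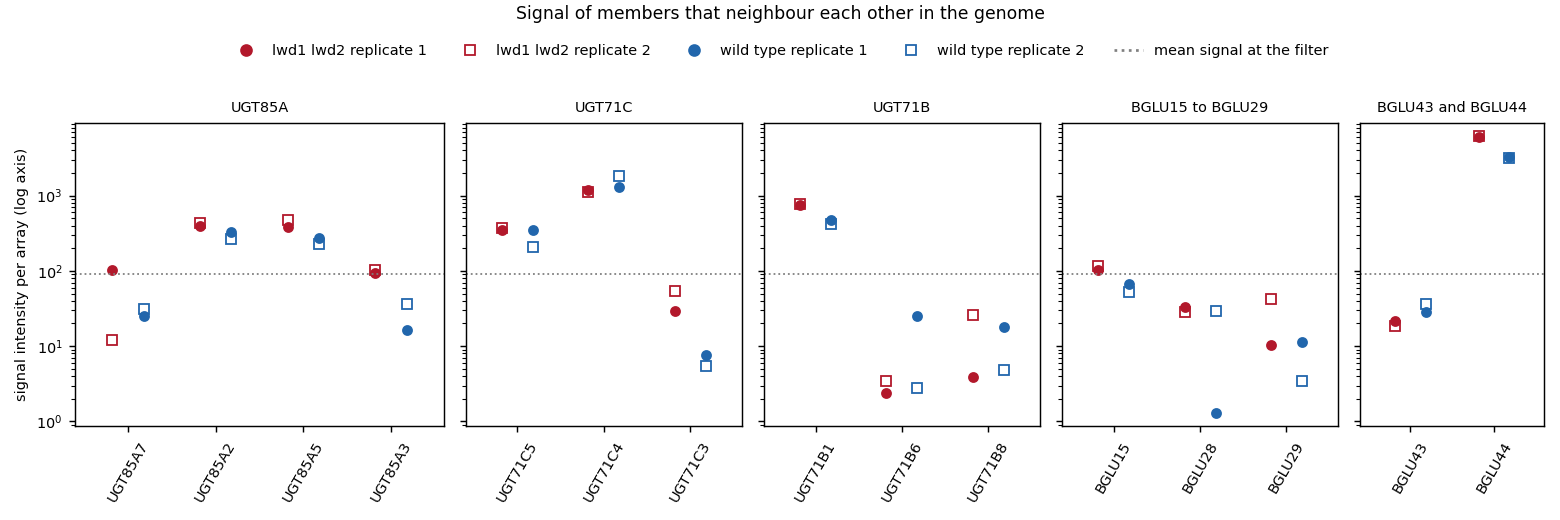
Signal intensity (log axis) per array for members that neighbour each other, lwd1 lwd2 in red and wild type in blue; the dotted line marks the mean signal of 91.5 needed for testing. UGT85A2, UGT85A5 and UGT85A3 each have both mutant arrays above both wild-type arrays. BGLU43 and BGLU44 lie on opposite sides of the line, with the genotypes in opposite order. The dim BGLU43 did not pass (−0.41 ± 0.35 with no filter, limma adjusted p = 0.655).

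The UGT71C cluster had differences of both signs, and none passed. UGT71C4 was at 1181 and 1121 on the lwd1 lwd2 arrays, against 1301 and 1797 on the wild-type arrays, lower in the mutant. Its dim neighbour UGT71C3 was at 29.0 and 53.6 on the lwd1 lwd2 arrays, against 7.65 and 5.49 on the wild-type arrays, higher in the mutant (1.31 with no filter, limma adjusted p = 0.191). Next to UGT71B1, UGT71B6, a glucosyltransferase of abscisic acid, was at 2.41 and 3.46 on the lwd1 lwd2 arrays, against 25.3 and 2.76 on the wild-type arrays, and UGT71B8 at 3.85 and 26.3 on the lwd1 lwd2 arrays, against 18.1 and 4.87 on the wild-type arrays. These are low and overlapping values, unlike those of UGT71B1. BGLU43, beside BGLU44, was at 21.6 and 18.5 on the lwd1 lwd2 arrays, against 28.2 and 35.9 on the wild-type arrays, dim and in the opposite order. In the cluster of BGLU15, BGLU28 and BGLU29, all of them dim, BGLU15, which removes a sugar from flavonol bisglycosides, was at 102 and 115 on the lwd1 lwd2 arrays, against 66.3 and 52.6 on the wild-type arrays (0.73 with no filter, limma adjusted p = 0.386).

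The 62 dim members had mean signals from 3.91 to 86.4. Without the filter none of them passed, at adjusted p of 0.148 or above, and 19 had no overlap, 12 of them higher and 7 lower in the mutant. That is 30.6% of dim members, against 35.7% of all dim probe sets (22.9% higher, 12.8% lower), so dim members did not stand apart more often than other dim probe sets on the array. Replicates could differ many times over at such signals, as for BGLU28, at 33.4 and 28.1 on the lwd1 lwd2 arrays, against 1.31 and 28.9 on the wild-type arrays. The lowest adjusted p belonged to UGT74F1, which makes salicylic acid glucoside, at 41.1 and 125 on the lwd1 lwd2 arrays, against 7.44 and 7.57 on the wild-type arrays. The mutant values were both higher but far apart, with a difference of 1.93 (limma adjusted p = 0.148). UGT76D1, which glucosylates dihydroxybenzoic acids derived from salicylate, was at 45.0 and 66.0 on the lwd1 lwd2 arrays, against 16.2 and 4.33 on the wild-type arrays (1.47, adjusted p = 0.172). UGT76B1, another glucosyltransferase of salicylic and isoleucic acid, was lower at 1.53 and 1.35 on the lwd1 lwd2 arrays, against 7.34 and 5.42 on the wild-type arrays, which is too dim for a size. The auxin glucosyltransferase UGT84B1 was at 4.35 and 8.61 on the lwd1 lwd2 arrays, against 7.85 and 35.2 on the wild-type arrays and overlapped. All 7 dim GSTs had an adjusted p of at least 0.644 without the filter.

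Genes of connected pathways were taken from 7 lists, of which few entries were named on the array: 30 probe sets for 246 entries, 23 of them tested. Of these, 1 rose and 2 fell, which is 13% of those tested, against the 5.57% of all tested probe sets. Without the filter on dim probe sets none of the 3 passed. The list of glutathione synthesis, reduction and peroxidation had 9 tested genes and none passed, 7 of them with a negative difference (median −0.31). None of the 9 is named as a glutathione synthesis gene. ATMDAR2, SAPX and TAPX are named as enzymes of ascorbate, so the median does not describe glutathione genes alone. Of the 9, 4 are named as glyoxalase II genes (GLY2, GLX2-1, GLX2-4 and GLX2-5), hydrolases of glutathione thioesters, and 3 of these were among the negative ones. The glutathione reductases GR1, at 1334 and 1788 on the lwd1 lwd2 arrays, against 1997 and 2378 on the wild-type arrays (−0.49 ± 0.20), and GR, at 2544 and 2156 on the lwd1 lwd2 arrays, against 3134 and 3822 on the wild-type arrays (−0.56 ± 0.18), were lower in the mutant without overlap.

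HCT, a shikimate ester-forming enzyme on the path to lignin precursors, fell. Its signals were 2447 and 3189 on the lwd1 lwd2 arrays, against 4602 and 4998 on the wild-type arrays, a 1.71-fold fall with a log2 difference of −0.78 ± 0.18 (SE, limma adjusted p = 0.0361). The call was lost without the filter (adjusted p = 0.119), without an intensity trend (0.0838), after quantile normalization (0.0513), without lwd1 lwd2 replicate 1 (0.152) and without wild type replicate 2 (0.101), all from limma. It was 1 of 2 tested genes of the phenylpropanoid list; the other, the sinapaldehyde and coniferaldehyde dehydrogenase ALDH2C4, differed by 0.037 ± 0.17. The 2 tested flavonoid genes, DFR (0.033 ± 0.26) and CHIL (−0.43 ± 0.25), and 4 tested glucosinolate genes (−0.34 to 0.23) did not pass.

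Among proteins of ER bodies and the lectins that bind their beta-glucosidases, JAL23 rose and JAL22 fell. JAL23 stood at 992 and 1363 on the lwd1 lwd2 arrays, against 538 and 520.3 on the wild-type arrays (1.11 ± 0.21, limma adjusted p = 0.0108). JAL22, another jacalin-related lectin, stood at 407 and 417 on the lwd1 lwd2 arrays, against 817 and 787 on the wild-type arrays (−0.94 ± 0.19, limma adjusted p = 0.0159). Both passed in every alternative except the analysis without the filter, where JAL23 had an adjusted p of 0.0537 and JAL22 of 0.0512 (limma). The genotypes did not overlap for either gene. Neither PYK10 (−0.30 ± 0.26), the main beta-glucosidase of ER bodies, nor NAI2 (0.46 ± 0.30), a protein needed to form them, passed. The 1 gene of the list of xenobiotic regulators, GRX480, was dim, and no gene of the transporter list was named.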

How the data were processed

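Total RNA (10 µg) was converted to biotin-labelled targets for Affymetrix arrays, per the labels' protocols. For each of 22810 probe sets, the authors deposited 1 signal intensity per array on a linear scale. Their software and summarisation are not given in the sources used here. Trimmed at 2% on each end, the mean of the deposited intensity values was 500.05 on all 4 arrays, so the arrays had been scaled to a common mean, and a change in total mRNA cannot be seen. No detection calls were used.

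Intensities were analysed as log2(intensity + 16) without further normalization. The 64 control probe sets and the 40% with the lowest mean over all arrays were left out. Genotypes were compared with limma 3.58.1 in R 4.3.3 (eBayes with an intensity trend, two-sided, Benjamini-Hochberg over 13647 probe sets, 2 residual degrees of freedom). The procedure was tested on simulated data with Gaussian noise whose spread depended only on the signal. Such data lack a spread particular to each gene, so that test does not give the error rate on these arrays. Plots were made in matplotlib 3.10.9.

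Symbols are those of the platform's probe table, brought up to date with RefSeq genes of TAIR10.1. Of the probe sets, 13513 had 1 gene; all 110 members were matched to a locus. None of their identifiers ended in _s_at or _x_at. List entries were matched by symbol or synonym. CHI and PI were left out because the name matched another gene, and scpl35 was left out of the pollen list as a member.

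Members named with values were every called member, the 3 brightest and the 2 highest and 2 lowest uncalled differences per family, uncalled tested members without overlap and with a difference of at least 1 (there were none), the neighbours of called members and called list genes. Other genes given with values were chosen after their values were seen. Members and lists were chosen with earlier results of these data known. A planned search of promoters for motifs was not run, and no sequences are shown. The labels give replicate numbers 1 and 2 in both genotypes but no shared batch; the numbers were not treated as pairs. Whether replicates came from separate plantings is not stated, so p-values refer only to the spread between these samples. For each gene, limma combined that spread with the spread of probe sets of similar signal. The p-values thus do not rest on a gene's own replicates alone. Alternatives were other normalizations, offsets, filters and variance priors, the replicate number as a block, and each array left out.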

Additional observations from a re-analysis of the deposited data

How the results depend on the processing

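BGLU44 and SCPL49 passed in each of the 13 alternatives. No called member changed direction, but leaving out 1 array cannot turn the sign of genes whose genotypes do not overlap. The shift of −0.13 by median centring was also smaller than their differences. Without the filter, 258 of 22746 probe sets passed, against 760, and no pathway gene passed, against 3; 2 passed without an intensity trend, after quantile normalization, without lwd1 lwd2 replicate 1 and without wild type replicate 2, HCT being the one lost. No UGT was called without the filter, without an intensity trend, after quantile normalization, without lwd1 lwd2 replicate 2 or without wild type replicate 2, and 3 were with a robust prior. UGT71B1 had an adjusted p of 0.0891 after centring each array on its median. GST calls numbered 2 with the 60% filter, median centring or a robust prior, and 0 to 2 when 1 array was left out. SCPL calls numbered 2 after median centring and 1 to 2 when 1 array was left out. UGT calls ran from 0 to 1 in those fits, and all calls from 561 to 1095, the highest without wild type replicate 1. Median centring moved all differences by −0.13 and quantile normalization moved their median by −0.0797. After median centring the medians were −0.16 for UGT, −0.36 for GST and 0.0577 for SCPL genes. The GST median was −0.32 with the 60% filter, over 5 genes against 7. The SCPL median was 0.0437 without the filter, over 29 genes against 14. A filter leaves the difference of each gene as it is, so these 2 medians moved through a change of genes. With 1 array left out, medians ran from −0.0211 to 0.0255 (UGT), −0.35 to −0.11 (GST), 0.0928 to 0.38 (BGLU) and 0.11 to 0.41 (SCPL). With 1 array left out, the sign turned for 15 of the 48 tested members, all uncalled and all with overlapping genotypes. Among them were BGLU47 (−0.68 to 0.11), scpl26 (−0.31 to 0.20), UGT78D1 (−0.28 to 0.0359), UGT74B1 (−0.0463 to 0.14) and GSTU26 (−0.0212 to 0.19). The others were BGLU16, GSTF4, SCPL45, scpl25, scpl29, UGT72E2, UGT76C2, UGT80B1, UGT84A3 and UGT87A2. Centring or quantile normalization turned the sign of 8 members, all uncalled: BGLU16, scpl29, UGT76C2, UGT78D2, UGT80B1, and, after median centring, UGT74B1 (−0.0782), GSTU27 (−0.0232) and GSTU26 (−0.0429), the last also after quantile normalization (−0.0479). The alternatives for pathway genes and the sign counts over all tested members were chosen after seeing the data. The causes were not tested. Same-numbered arrays deviated together only weakly (r = 0.0935). With the replicate number as a block, 676 probe sets passed, the UGT calls fell to 0, as UGT71B1 had an adjusted p of 0.0655, and no other member's call changed. Leaving out probe sets whose identifiers end in _s_at or _x_at removed no member.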
